A study of Homo sapiens with 24 samples.

Results

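The asparagine tRNAs of the human nuclear genome were followed through knockouts of 3 dihydrouridine synthases in HEK293T cells, a human embryonic kidney line. They were taken by name from the authors' deposited tables, as the anticodon row Asn-GTT, 1 of 74 rows of an anticodon table, and as every isodecoder row that starts with the asparagine name, 17 of 286 rows of an isotype table. Mitochondrial rows were left out. An isodecoder is a tRNA of distinct sequence that shares its anticodon with others, and Asn-GTT collects all of them. All 17 rows carried a p-value in each of the 6 comparisons.

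Transfer RNA was isolated from a gel and sequenced as a small RNA library in 24 libraries of untreated cells. The labels give 8 groups of 3 libraries, which were 2 sets of wild-type HEK293T and 2 clones each of cells without DUS1L (1-9 and 2-4), without DUS2L (1-8 and 2-1) and without DUS3L (1-5 and 2-8). Each knockout group is thus a single clone, and the tables compare clones #1 and #2 of a knockout with wild type without saying which labelled clone is which or which wild-type set was used. Nothing in the labels ties the 3 libraries of a group to separate cultures, and a p-value therefore reflects the spread among libraries, possibly a technical one.

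Asparagine tRNA reads the asparagine codons AAC and AAU with the anticodon GTT, written as DNA, whose G is replaced by queuosine in many mature molecules. Dihydrouridine synthases reduce uridines of tRNA to dihydrouridine, a base that does not stack and loosens the loops it sits in. DUS1L acts on positions 16 and 17 and DUS2L on position 20, all in the D loop, and DUS3L on position 47 in the variable loop, in the standard tRNA numbering.

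The sequence of 2 asparagine genes is shown, the only ones whose whole sequence lay in the reference windows used here. The genes of the other rows were not read in full, so these 2 do not stand for the family. Both hold a possible site of each of the 3 enzymes and differ little. Only the row of the second was called higher in any clone. The row of the first was low, at 78.0 normalised counts in the DUS1L wild type, against 1424 for the second. Both were read from RefSeq windows of GRCh38.p14, 5′ to 3′, with the D loop, the anticodon loop and the variable loop in capitals. The first lies at chr1:16889677-16889750 on the plus strand and the second at chr1:143735920-143735993 on the minus strand.
tRNA-Asn-GTT-4-1: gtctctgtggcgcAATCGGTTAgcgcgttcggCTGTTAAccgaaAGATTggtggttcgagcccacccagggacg
tRNA-Asn-GTT-6-1: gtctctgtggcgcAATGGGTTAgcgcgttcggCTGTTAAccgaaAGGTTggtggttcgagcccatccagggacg
Counted from 1 at the 5′ end, the change from the first to the second is C17G, A47G and C65T, so that 71 of 74 bases are shared. Both hold T at standard positions 16, 20 and 47, and neither holds T at standard position 17. Of the 3 differences, C17G lies in the D loop and A47G in the variable loop, while C65T lies in the T arm. The files do not measure dihydrouridine, so these positions show where a site could be and not whether it was modified.

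Of the 17 rows, 13 matched a RefSeq tRNA gene of GRCh38.p14 by name. Chromosome 1 held 12 of these genes, 8 of them between positions 143735920 and 149740321, and the gene of tRNA-Asn-GTT-2-3 lies on chromosome 10 at 22229509 to 22229582. A total of 5 lay within another annotated gene and 0 within an exon. These are tRNA-Asn-GTT-4-1 (16889677 to 16889750) in an intron of CROCC, which encodes a protein of the ciliary rootlet, tRNA-Asn-GTT-24-1 (146370101 to 146370174) in the pseudogene SEC22B4P, tRNA-Asn-GTT-8-1 (149740248 to 149740321) in the pseudogene AC243772.3, tRNA-Asn-GTT-5-1 (16520585 to 16520658) in the non-coding gene AL137802.3, and tRNA-Asn-GTT-1-1 (161540241 to 161540314) in the non-coding gene AL590385.2. The name of tRNA-Asn-GTT-2-3 stands for an isodecoder with 8 placed gene copies. Near-identical genes can share reads, and how such reads were assigned is not given in the sources used here, so a value per isodecoder is less certain than the family value.

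Values are given in 2 forms. A level is a mean of normalised counts in one group, recovered here from the mean and both fold changes of the authors' deposited table, assuming 3 libraries in each of 3 groups. A change is the log2 fold change of a clone over wild type from the authors' deposited table, with the standard error (SE) recovered from its p-value. The threshold for a call, or for a tRNA to pass, was an adjusted p of 0.05, from the authors' p-values adjusted by the Benjamini-Hochberg method over all rows of a table. The means of the authors' deposited tables summed to 1278870 normalised counts for DUS1L, 2649840 for DUS2L and 817514 for DUS3L in the isotype tables, and values per library were not analysed here. The recovered wild-type levels of the DUS1L and DUS2L tables differed by a constant factor (SD 0.019 on the log2 scale over 181 rows), so both rest on the same wild-type libraries, while those of the DUS3L and DUS1L tables differed row by row (SD 1.51 over 135 rows).

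The asparagine family was lower than wild type in both DUS2L clones, higher in DUS1L clone #1 and higher in DUS3L clone #2, and it did not pass in DUS1L clone #2 or DUS3L clone #1. The recovered family level in the DUS1L table was 20985 normalised counts in wild type, 64056 in clone #1 and 18039 in clone #2. In the DUS2L table it was 48138 in wild type, 9499 in clone #1 and 13293 in clone #2. In the DUS3L table it was 1908 in wild type, 1798 in clone #1 and 5562 in clone #2. Levels of different tables were scaled apart and are not compared in size.

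As a change over wild type, the authors' deposited table put Asn-GTT at 1.61 ± 0.45 in DUS1L clone #1 (adjusted p = 0.0069), a row among the 5.71% of the anticodon table that were higher, and at -0.22 ± 0.45 in clone #2 (adjusted p = 0.955), where 0% passed in either direction. For DUS2L the same row of the authors' deposited table stood at -2.34 ± 0.41 in clone #1 (adjusted p = 3.22e-07) and -1.86 ± 0.41 in clone #2 (adjusted p = 9.16e-05). Lower calls were frequent there, at 26.8% of the anticodon rows in clone #1 and 25.4% in clone #2, beside 8.45% and 16.9% of higher calls. For DUS3L the authors' deposited table gave -0.09 ± 0.39 in clone #1 (adjusted p = 0.945), where 5.41% of rows were lower and 2.7% higher, and 1.54 ± 0.39 in clone #2 (adjusted p = 0.00189), where 5.41% of rows were higher and 0% lower. The DUS1L and DUS2L changes share their wild-type libraries and are set side by side only.

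**Figure D1:**
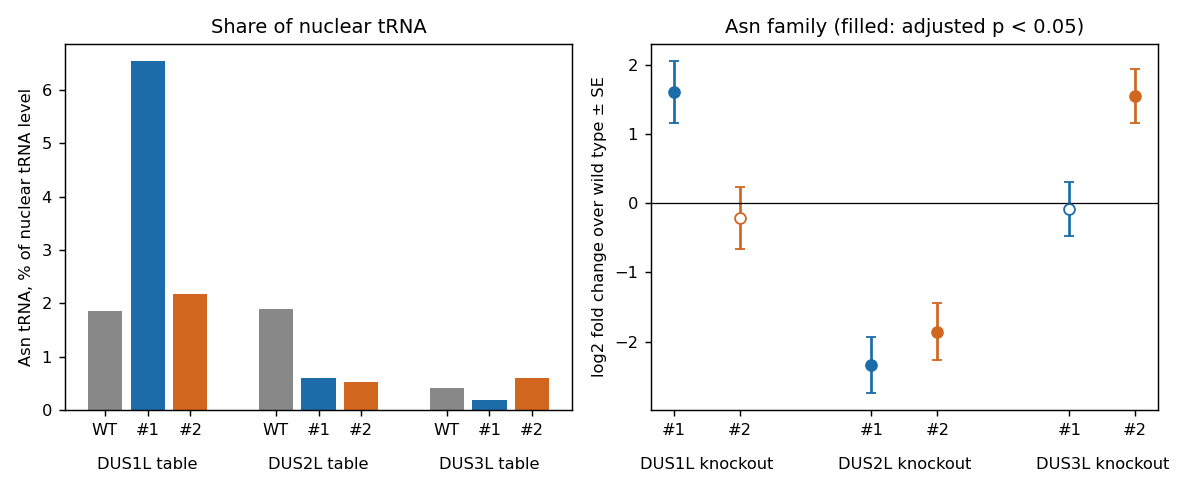
Left, the share of the asparagine family in the summed recovered level of nuclear tRNA, in percent, for wild type (grey), clone #1 (blue) and clone #2 (orange) of each table, with no error since values per library were not analysed. Right, the log2 fold change of Asn-GTT over wild type with its SE, filled where the adjusted p was under 0.05: both DUS2L clones lie below 0, and 1 clone each of DUS1L and DUS3L lies above.

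The other nuclear tRNAs also shifted in the DUS2L tables. The median nuclear row of the anticodon table changed by -1.10 in DUS2L clone #1 and -0.45 in clone #2, by -0.04 and -0.05 in the DUS1L clones, and by -0.19 and 0.28 in the DUS3L clones. Relative to that median, Asn-GTT stood at -1.24 (adjusted p = 0.0115) and -1.41 (adjusted p = 0.00258) in the DUS2L clones, where 4.23% and 11.3% of the anticodon rows were then lower. It stood at 1.65 in DUS1L clone #1 (adjusted p = 0.00484, 5.8% of rows higher) and at 1.26 in DUS3L clone #2 (adjusted p = 0.0295, 4.05% of rows higher), so each of these calls held. The mean change of the 3 E. coli spike-in tRNAs was -0.27 and -0.46 in the DUS2L clones, and between -0.0046 and 0.18 in the other clones. The single spike-ins were spread in the DUS2L clones, from -0.92 to 0.29 in clone #1 and from -1.88 to 0.25 in clone #2.

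As a share of the summed nuclear tRNA level, asparagine tRNA made up 1.86% in wild type, 6.53% in clone #1 and 2.18% in clone #2 of the DUS1L table. In the DUS2L table it fell from 1.89% in wild type to 0.596% and 0.532% in the clones. In the DUS3L table it was 0.404% in wild type, 0.195% in clone #1 and 0.597% in clone #2. In DUS3L clone #2 the share thus differed from wild type less than the family level did, with a log2 ratio of 0.56 for the share. In DUS3L clone #1 the log2 ratio of the share was -1.05, beside a family change of -0.09. The summed nuclear level of the DUS3L table was 472240 in wild type, 921816 in clone #1 and 932485 in clone #2, so its nuclear total also shifted. The 2 sets of wild-type libraries, both of unedited HEK293T cells, held 1.86% and 0.404%, so the wild types stood further apart than wild type and clone did within the DUS3L table.

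The family call in the DUS2L knockouts ended with another wild type. With the wild type of the DUS3L table in place of their own, and changes taken relative to the median nuclear row, Asn-GTT stood at 0.12 (adjusted p = 0.964) and -0.13 (adjusted p = 0.867) in the DUS2L clones, and at 3.24 (adjusted p = 5.34e-13) and 1.61 (adjusted p = 0.000535) in the DUS1L clones, where 25.7% and 24.3% of the anticodon rows were then higher. In such a comparison the library set and the genotype cannot be told apart.

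The isodecoders did not move as a block. In DUS1L clone #1, 5 of the 17 were higher (background 15.6% of the table), 4 lower (background 5.09%) and 8 did not pass, with a median of 0.19 against 0.30 over the 275 rows tested. In DUS1L clone #2, 0 were higher (background 2.55%), 3 lower (background 5.82%) and 14 did not pass, with a median of -0.42 against -0.13. The count with an unadjusted p under 0.05, in either direction, was 10 in clone #1 and 5 in clone #2.

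The 4 isodecoders tRNA-Asn-GTT-24-1, tRNA-Asn-GTT-9-2, tRNA-Asn-GTT-2-3 and tRNA-Asn-GTT-6-1, grouped after their values were seen, together went from a level of 10088 in wild type to 49823 in DUS1L clone #1 and 10588 in clone #2. The level of tRNA-Asn-GTT-24-1, the largest member of the family in wild type, was 5115 normalised counts in wild type, 27711 in clone #1 and 5058 in clone #2. The authors' deposited table gave it a change of 2.44 ± 0.58 in clone #1 (adjusted p = 0.000401) and -0.02 ± 0.58 in clone #2 (adjusted p = 0.994). Clone #1 was thus far above wild type, and clone #2 lay within its error of wild type. The other members of this group rose by 2.13 to 2.17 in clone #1 in the authors' deposited table, with tRNA-Asn-GTT-6-1 going from a level of 1424 to 6225. In clone #2 the authors' deposited table put all 4 between -0.06 and 0.29, without a call.

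The remaining higher call in DUS1L clone #1 was that of tRNA-Asn-GTT-25-1, whose level was 740 in wild type, 2545 in clone #1 and 2137 in clone #2. The authors' deposited table listed 1.78 ± 0.68 for clone #1 (adjusted p = 0.0435) and 1.53 ± 0.68 for clone #2, which did not pass (adjusted p = 0.137). The clone #1 call was lost relative to the median nuclear row (1.58, adjusted p = 0.0843) and relative to the spike-ins (1.60, adjusted p = 0.0795).

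Against this rise, a further 3 isodecoders fell in DUS1L clone #1. The row tRNA-Asn-GTT-12-1 went from a level of 1150 in wild type to 25.9 in clone #1 and 4.53 in clone #2, and the authors' deposited table gave changes of -5.47 ± 0.72 (adjusted p = 1.03e-11) and -7.99 ± 0.78 (adjusted p = 3.16e-22). Both clones were far below wild type, and with the DUS3L table's wild type they still passed, at -2.97 (adjusted p = 5.87e-06) and -5.13 (adjusted p = 7.58e-12) relative to the median nuclear row. The level of tRNA-Asn-GTT-10-1 (chromosome 1, 145129239 to 145129312) was 699 in wild type, 245 in clone #1 and 84.7 in clone #2. Its changes in the authors' deposited table were -1.51 ± 0.49 (adjusted p = 0.0143) and -3.04 ± 0.50 (adjusted p = 1.33e-07). This direction turned with the DUS3L table's wild type, at 1.78 (adjusted p = 0.00544) and 0.60 (adjusted p = 0.424).

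The level of tRNA-Asn-GTT-8-1 was 220 in wild type, 4.24 in clone #1 and 45.4 in clone #2 of DUS1L. The authors' deposited table gave -5.70 ± 0.98 in clone #1 (adjusted p = 5.63e-07) and -2.28 ± 0.86 in clone #2, which did not pass (adjusted p = 0.0708). With the DUS3L table's wild type and relative to the median nuclear row, clone #1 stood at -2.68 (adjusted p = 0.0441) and clone #2 turned to 1.10 (adjusted p = 0.440). The remaining lower call of both DUS1L clones was the row named tRNA-Asn-26-1, whose name lacks an anticodon, named here after its values were seen. Its levels were 14.0 normalised counts in wild type and 0.251 and 0.136 in the clones, too few for a fold to be given.

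The other isodecoders did not pass in either DUS1L clone. The rows tRNA-Asn-GTT-9-1, tRNA-Asn-GTT-1-1, tRNA-Asn-GTT-3-1 and tRNA-Asn-GTT-26-1 ranged, per the authors' deposited table, from -0.39 to 0.99 in clone #1 and from -0.80 to -0.42 in clone #2. The genes tRNA-Asn-GTT-9-1 (chromosome 1, 145475381 to 145475454) and tRNA-Asn-GTT-9-2 (148048516 to 148048589) are by name copies of 1 isodecoder, yet in clone #1 they stood at 0.99 and 2.15 in the authors' deposited table. Summed, they stood at 1.40. The printed gene tRNA-Asn-GTT-4-1 had -0.44 ± 0.65 in clone #1 and -0.20 ± 0.65 in clone #2 per the authors' deposited table, with no call.

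**Figure D2:**
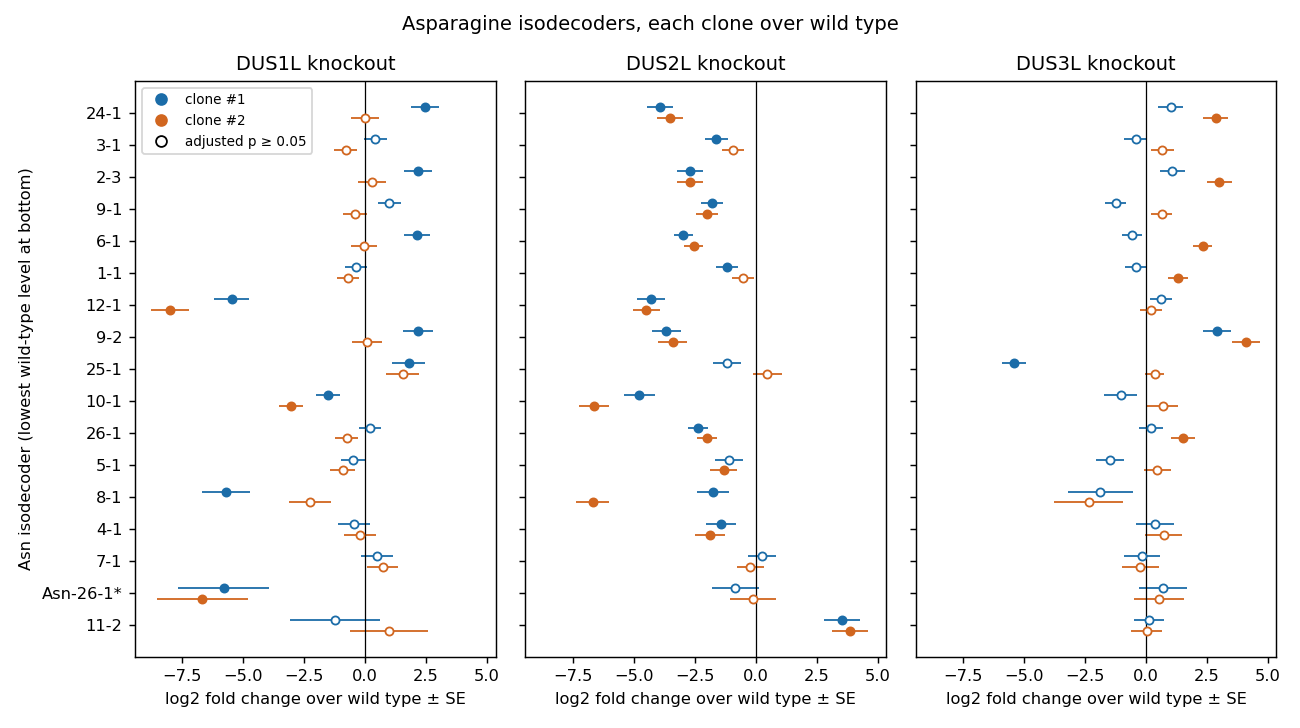
Log2 fold change over wild type with its SE for the 17 asparagine isodecoder rows (tRNA-Asn-GTT- names shortened, highest level in the DUS1L wild type at the top, the asterisk marking the row without an anticodon in its name) in clone #1 (blue) and clone #2 (orange) of each knockout, filled where the adjusted p was under 0.05. In DUS1L clone #1, rows above and below 0 stand side by side, in DUS2L both clones lie mostly below 0, and in DUS3L the higher calls are mostly those of clone #2.

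In the DUS2L knockouts most asparagine isodecoders were lower in both clones. Of the 17, 12 were lower in clone #1 (background 37.3%) and 11 in clone #2 (background 30.8%), 1 was higher in each (background 16.7% and 21.4%), and 4 and 5 did not pass. The median change of the members was -1.74 in clone #1 and -1.99 in clone #2, against -0.90 and -0.47 over the 276 rows tested. The median nuclear row of the isotype table changed by -1.02 and -0.55. Relative to it, 7 of the 17 were lower in clone #1 (background 10.5%) and 9 of the 17 in clone #2 (background 17%). All of these were among the 12 and 11 lower calls above.

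The 4 isodecoders with the higher calls in DUS1L clone #1 other than tRNA-Asn-GTT-25-1 were lower in both DUS2L clones, against the same wild type libraries. The level of tRNA-Asn-GTT-24-1 was 11792 in wild type, 784 in clone #1 and 1026 in clone #2. The authors' deposited table gave changes of -3.91 ± 0.53 (adjusted p = 5.27e-12) and -3.52 ± 0.53 (adjusted p = 5.03e-10). Both clones were far below wild type, by 15 and 11 times. For tRNA-Asn-GTT-9-2 the level went from 2191 to 173 and 207, and the authors' deposited table listed -3.66 ± 0.61 and -3.41 ± 0.60. The level of tRNA-Asn-GTT-6-1 fell from 3280 to 419 and 565, with changes of -2.97 ± 0.39 and -2.54 ± 0.39 in the authors' deposited table, and tRNA-Asn-GTT-2-3 from 5938 to 924 and 918, with -2.68 ± 0.53 and -2.69 ± 0.53. These 4 were among the calls that held in both clones relative to the median nuclear row.

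The isodecoders tRNA-Asn-GTT-10-1 and tRNA-Asn-GTT-12-1, lower in both DUS1L clones, were lower in both DUS2L clones as well. The level of tRNA-Asn-GTT-10-1 was 1607 in wild type, 59.2 in clone #1 and 16.3 in clone #2, with changes of -4.76 ± 0.62 (adjusted p = 6.16e-13) and -6.62 ± 0.62 (adjusted p = 1.57e-24) in the authors' deposited table. The level of tRNA-Asn-GTT-12-1 went from 2654 to 136 and 118, with -4.29 ± 0.56 and -4.49 ± 0.55 in the authors' deposited table. For tRNA-Asn-GTT-8-1 the clones were apart, at levels of 491 in wild type, 147 in clone #1 and 4.78 in clone #2, and changes of -1.74 ± 0.65 (adjusted p = 0.0162) and -6.68 ± 0.68 (adjusted p = 6.58e-21) in the authors' deposited table. Relative to the median nuclear row the DUS2L clone #1 call of tRNA-Asn-GTT-8-1 was lost, at -0.71 (adjusted p = 0.411). The DUS1L and DUS2L changes of these rows share their wild type and are set side by side only. In the wild type of the DUS3L table these 3 isodecoders together made up 4.81% of the family, against 9.85% in that of the DUS1L table.

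Other members passed in both DUS2L clones or in 1 of them. The authors' deposited table gave tRNA-Asn-GTT-26-1 changes of -2.37 ± 0.41 and -2.0 ± 0.41 and tRNA-Asn-GTT-9-1 changes of -1.78 ± 0.44 and -1.99 ± 0.44, which passed in both clones. Relative to the median nuclear row tRNA-Asn-GTT-26-1 still passed in both. The clone #1 call of tRNA-Asn-GTT-9-1 was then lost, at -0.76 (adjusted p = 0.183), and its clone #2 call held. The printed gene tRNA-Asn-GTT-4-1 passed in both, with -1.42 ± 0.62 (adjusted p = 0.0423) and -1.88 ± 0.61 (adjusted p = 0.00589) in the authors' deposited table, but in neither relative to the median nuclear row. Clone #1 alone passed for tRNA-Asn-GTT-3-1, whose changes in the authors' deposited table were -1.61 ± 0.46 and -0.93 ± 0.46, and for tRNA-Asn-GTT-1-1, with -1.18 ± 0.45 and -0.53 ± 0.45. Clone #2 alone passed for tRNA-Asn-GTT-5-1, at -1.08 ± 0.56 and -1.31 ± 0.56 in the authors' deposited table. Relative to the median nuclear row none of these single-clone calls held. Passing in 1 clone does not show a difference between clones, and the test between clones follows.

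A single member was higher in the DUS2L clones. The row tRNA-Asn-GTT-11-2 stood at a level of 4.38 in wild type, 51.3 in clone #1 and 64.1 in clone #2, and changed by 3.55 ± 0.75 (adjusted p = 1.33e-05) and 3.87 ± 0.74 (adjusted p = 1.1e-06) in the authors' deposited table. It is the member of lowest wild-type level in both tables that use this wild type, and in the wild type of the DUS3L table its level was 22.9. Against the latter wild type and relative to the median nuclear row it stood at -0.89 and -1.04 without passing. The row tRNA-Asn-GTT-25-1 did not pass, at -1.18 ± 0.59 and 0.49 ± 0.58 in the authors' deposited table.

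The wild type of the DUS3L table was then used, with changes relative to the median nuclear row. Of the 17 members, 0 were lower in DUS2L clone #1 (background 9.89%) and 3 in clone #2 (background 14.3%). Neither count stood far from its background. Those 3 were tRNA-Asn-GTT-8-1, tRNA-Asn-GTT-10-1 and tRNA-Asn-GTT-12-1. Against their own wild type 12 and 11 had been lower, these 3 among them. Under the same replacement 9 members were higher in DUS1L clone #1 (background 24%) and 6 in clone #2 (background 23.2%).

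In the DUS3L knockouts most members did not pass, and the higher calls were more numerous in clone #2. In clone #1, 1 of the 17 was higher (background 2.48%), 1 lower (background 5.32%) and 15 did not pass, with a median of -0.17 against 0 over the 282 rows tested and 6 rows at an unadjusted p under 0.05. In clone #2, 6 were higher (background 10.6%), 0 were lower (background 1.06%) and 11 did not pass, with a median of 0.66 against 0.22. The rows of clone #2 at an unadjusted p under 0.05 were its 6 higher calls alone. They were not the same set as the 6 rows of clone #1. Relative to the median nuclear row, 4 of the 6 higher calls held, and 9.25% of all rows tested were then higher.

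Those 4 were again tRNA-Asn-GTT-24-1, tRNA-Asn-GTT-9-2, tRNA-Asn-GTT-2-3 and tRNA-Asn-GTT-6-1, here against another wild type. The level of tRNA-Asn-GTT-9-2 was 31.7 in wild type, 237 in clone #1 and 546 in clone #2, and it passed in both clones, at 2.90 ± 0.57 (adjusted p = 2.24e-05) and 4.11 ± 0.57 (adjusted p = 2.94e-11) in the authors' deposited table. For tRNA-Asn-GTT-2-3 the level went from 119 to 250 and 955, and for tRNA-Asn-GTT-24-1 from 158 to 317 and 1146. The changes of these rows in the authors' deposited table were 1.07 ± 0.51 and 3.01 ± 0.50 for the former, and 1.01 ± 0.51 and 2.86 ± 0.51 for the latter, with calls in clone #2 alone. The level of tRNA-Asn-GTT-6-1 was 58.3 in wild type, 38.8 in clone #1 and 293 in clone #2, so that clone #1 lay below wild type and clone #2 above it. Its changes in the authors' deposited table were -0.59 ± 0.41 (adjusted p = 0.428) and 2.33 ± 0.39 (adjusted p = 1.1e-07).

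The other higher calls of DUS3L clone #2 were tRNA-Asn-GTT-1-1 at 1.31 ± 0.42 and tRNA-Asn-GTT-26-1 at 1.53 ± 0.50 in the authors' deposited table (adjusted p = 0.0196 for both). Relative to the median nuclear row they stood at 1.09 and 1.31, which did not pass (adjusted p = 0.0786 and 0.0664). The copy tRNA-Asn-GTT-9-1 did not follow tRNA-Asn-GTT-9-2, at -1.24 ± 0.44 (adjusted p = 0.0521) and 0.65 ± 0.43 (adjusted p = 0.484) in the authors' deposited table. Summed, these copies stood at 0.53 in clone #1 and 1.94 in clone #2.

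The lower call of DUS3L clone #1 was tRNA-Asn-GTT-25-1 (chromosome 1, 149558419 to 149558493). Its level was 302 in wild type, 7.08 in clone #1 and 385 in clone #2. The authors' deposited table gave -5.42 ± 0.49 in clone #1 (adjusted p = 4.93e-26) and 0.35 ± 0.41 in clone #2 (adjusted p = 0.724). Clone #1 alone stood apart, 42.7 times below wild type, and in no other comparison was this row called lower. This fold rests on few counts in clone #1. None of tRNA-Asn-GTT-8-1, tRNA-Asn-GTT-10-1 and tRNA-Asn-GTT-12-1 passed in either DUS3L clone, where their summed level went from 91.8 in wild type to 107 and 109.

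The make-up of the family moved with these changes. The group of tRNA-Asn-GTT-24-1, tRNA-Asn-GTT-9-2, tRNA-Asn-GTT-2-3 and tRNA-Asn-GTT-6-1 held 48.1% of the asparagine level in the DUS1L wild type, 77.8% in clone #1 and 58.7% in clone #2. In the DUS2L table the same group held 48.2% in wild type, 24.2% in clone #1 and 20.4% in clone #2. In the DUS3L table it held 19.2% in wild type, 47% in clone #1 and 52.8% in clone #2. The share of this group was thus higher in the clones of DUS1L and DUS3L and lower in those of DUS2L, and it also differed between the wild types. These shares follow from a group chosen after its values were seen and carry no test.

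The leading isodecoder changed with the group. In the wild type of the DUS1L table tRNA-Asn-GTT-24-1 led with 24.4% of the family, and tRNA-Asn-GTT-3-1 (chromosome 1, 144419267 to 144419340) followed with 15.4%. In DUS1L clone #1 tRNA-Asn-GTT-24-1 reached 43.3%. In both DUS2L clones tRNA-Asn-GTT-3-1 led, with 25.6% and 29.3%, and tRNA-Asn-GTT-24-1 was down to 8.24% and 7.70%. In the wild type of the DUS3L table tRNA-Asn-GTT-3-1 already led with 27.3%, ahead of tRNA-Asn-GTT-25-1 with 15.8% and with tRNA-Asn-GTT-24-1 at 8.28%. The DUS2L clones and the wild type of the DUS3L table thus had the same leading isodecoder, and the wild type of the DUS2L table had another.

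The isodecoders tRNA-Asn-GTT-9-1, tRNA-Asn-GTT-1-1, tRNA-Asn-GTT-3-1 and tRNA-Asn-GTT-26-1, also grouped after their values were seen, were the counterpart. This group takes in tRNA-Asn-GTT-9-1, by name a copy of the same isodecoder as tRNA-Asn-GTT-9-2 of the other group. How reads were split between these copies thus enters the contrast of the groups, and its part was not tested. The isodecoders of the counterpart held 36.8% of the family in the DUS1L wild type, 17.4% in clone #1 and 27.4% in clone #2. They held 36.7% in the DUS2L wild type, 59.6% in clone #1 and 57.8% in clone #2. They held 55.5% in the DUS3L wild type, 42.7% in clone #1 and 36.3% in clone #2. Their own levels fell in the DUS2L clones, from a sum of 17677 to 5676 and 7695, so the larger share there came with a smaller amount. In the DUS1L table their sum was 7730 in wild type, 11147 in clone #1 and 4950 in clone #2. In the DUS3L table it was 1058 in wild type, 768 in clone #1 and 2021 in clone #2. The smaller share in DUS1L clone #1 and in DUS3L clone #2 thus came with a larger amount.

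**Figure D3:**
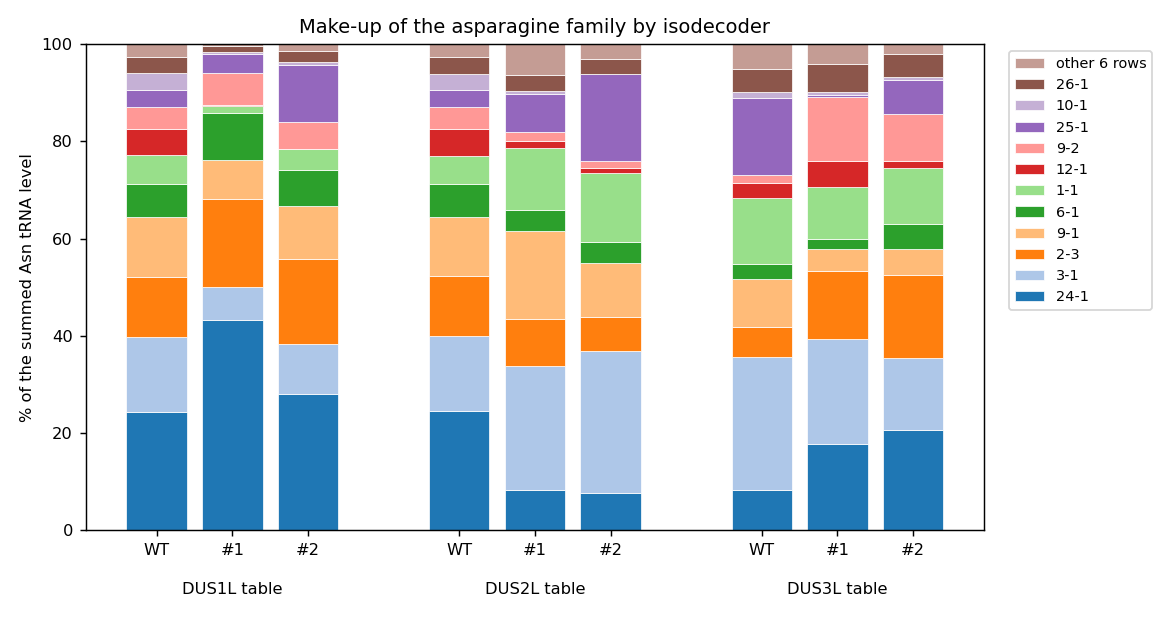
Share of each isodecoder in the summed recovered asparagine level, in percent, for wild type (WT), clone #1 and clone #2 of each table. The 6 rows of lowest level in the DUS1L wild type are joined as other in every bar. The blue segment at the bottom, tRNA-Asn-GTT-24-1, takes 24.4% in the DUS1L wild type, 43.3% in DUS1L clone #1 and 8.24% in DUS2L clone #1.

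Clones of the same knockout were then compared with each other, with an SE that leaves out the wild type they share. For the family, DUS1L clone #1 was higher than clone #2 by 1.83 ± 0.45 on the log2 scale (adjusted p = 0.00337), a row among the 2.86% of the anticodon table higher in clone #1. DUS3L clone #1 was lower than clone #2 by a log2 difference of -1.63 ± 0.39 (adjusted p = 0.000735), a row among the 4.05% higher in clone #2, beside 1.35% higher in clone #1. The DUS2L clones differed by -0.48 ± 0.41 (adjusted p = 0.791), which is no call and does not show that they were alike, and 1.41% of the anticodon rows were higher in clone #2 there.

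At the isodecoder level, DUS1L clone #1 was higher than clone #2 for 7 of the 17 (background 14.2%) and lower for 1 (background 0.364%). The log2 differences that passed ran from 1.40 ± 0.48 for tRNA-Asn-GTT-9-1 to 2.51 ± 0.81 for tRNA-Asn-GTT-12-1, and tRNA-Asn-GTT-24-1 stood at 2.45 ± 0.58 (adjusted p = 0.00115). The exception was tRNA-Asn-GTT-8-1 at -3.42 ± 0.97 (adjusted p = 0.00867). The ratios of tRNA-Asn-GTT-12-1 (levels of 25.9 in clone #1 and 4.53 in clone #2) and tRNA-Asn-GTT-8-1 (4.24 and 45.4) rest on few counts. Relative to the median nuclear row 2 of the 7 higher calls held, those of tRNA-Asn-GTT-6-1 and tRNA-Asn-GTT-24-1, and relative to the spike-ins 3.

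DUS3L clone #1 was lower than clone #2 for 7 of the 17 (background 11.3%) and higher for 0 (background 0.355%). Apart from tRNA-Asn-GTT-25-1, at -5.77 ± 0.50 (adjusted p = 1.32e-28), the widest gap was that of tRNA-Asn-GTT-6-1 at -2.91 ± 0.40 (adjusted p = 1.47e-11). The other 5 lay between -1.95 and -1.74. The ratio of tRNA-Asn-GTT-25-1 rests on few counts in clone #1, where its level was 7.08. Relative to the median nuclear row 6 of the 7 calls held. In the DUS2L knockout 1 isodecoder differed between the clones (background 0.362% higher in clone #1 and 1.45% higher in clone #2), which was tRNA-Asn-GTT-8-1 at 4.94 ± 0.72 (adjusted p = 5.6e-10). Its levels were 147 in clone #1 and 4.78 in clone #2, so this ratio rests on few counts in clone #2.

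**Figure D4:**
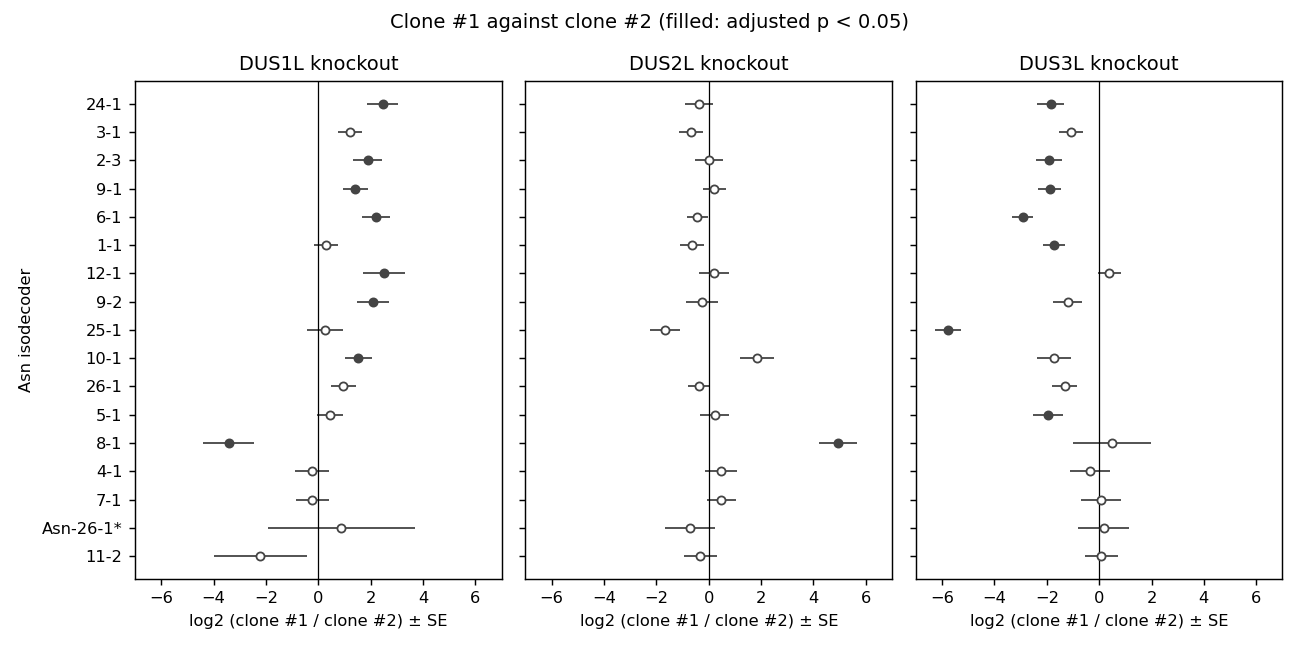
Log2 ratio of clone #1 to clone #2, with an SE that leaves out the shared wild type, for the 17 asparagine isodecoder rows of each knockout, filled where the adjusted p was under 0.05. The filled points lie mostly right of 0 for DUS1L (7 against 1), left of 0 for DUS3L (7 against 0), and for DUS2L only tRNA-Asn-GTT-8-1 is filled.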

How the data were processed

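Per the labels' protocols, tRNA of HEK293T cells was isolated from a gel and made into libraries with a small RNA kit. For reads, DESeq2, featureCounts, STAR and fastp and the build hg38 are named in the submitters' processing notes, without versions or steps. Trimming, the treatment of reads matching several genes and the scaling method are not given in the sources used here.

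In each of 6 deposited tables the authors gave, per the file headers, the mean normalised count of a row, a signal that is never negative, and for each clone against wild type a log2 fold change and a p-value, which the authors had not adjusted. No values per library were in these tables. Every row with a p-value entered the Benjamini-Hochberg adjustment, at a threshold of 0.05, since the tables hold no adjusted p.

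Dividing a log2 fold change by the normal quantile that its p-value stands for gave the SE. The mean of a row and its fold changes in both clones gave the wild-type level, and the SEs gave the dispersion. Checked on clone #2, SEs computed with the dispersion of clone #1 were off by a median of 0.00077 to 0.0025 (log2) over 152 to 209 rows per isotype table. Clones were compared by a normal test with an SE that leaves out the shared wild type. The tools were matplotlib 3.10.9, scipy 1.17.1, pandas 2.3.3, numpy 2.4.6 and Python 3.11.15. The calculation was run on simulated tables built with the same formulas, which checks the arithmetic and not the authors' model. No number of reads per library is known from these means, so depth sets no interval here.

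Named were the family, isodecoders with a mean of at least 100 in 1 table, and those with a mean of at least 10 that passed, which made 15 of 17. The members, lists and tests were chosen with earlier results of these data known. Places came from RefSeq GRCh38.p14, the build named as hg38, and overlapping genes from GENCODE. The rows tRNA-Asn-26-1, tRNA-Asn-GTT-11-2, tRNA-Asn-GTT-12-1 and tRNA-Asn-GTT-26-1 did not match. Alternatives were a threshold of 0.01, a minimum log2 change of 1 in size, a minimum mean of 100, other scalings, summed copies, shares and the other wild type.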

Additional observations from a re-analysis of the deposited data

Results flagged for a closer look

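Each result here is a log2 ratio of clone #1 to clone #2 of the same knockout whose adjusted p was under 0.05, which means that the clones' changes against the wild type they share differed from each other. For the family Asn-GTT the ratio was 1.83 in DUS1L and -1.63 in DUS3L.

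In DUS1L the ratio was 1.53 for tRNA-Asn-GTT-10-1, 2.51 for tRNA-Asn-GTT-12-1, 1.88 for tRNA-Asn-GTT-2-3, 2.45 for tRNA-Asn-GTT-24-1 and 2.19 for tRNA-Asn-GTT-6-1. It was 1.40 for tRNA-Asn-GTT-9-1, 2.08 for tRNA-Asn-GTT-9-2 and -3.42 for tRNA-Asn-GTT-8-1. The last of these had the opposite sign in DUS2L, where it stood at 4.94. The level of that row was 4.24 in DUS1L clone #1 and 4.78 in DUS2L clone #2, and that of tRNA-Asn-GTT-12-1 was 4.53 in DUS1L clone #2. Relative to the median nuclear row, the DUS1L ratios of tRNA-Asn-GTT-24-1, tRNA-Asn-GTT-6-1 and tRNA-Asn-GTT-8-1 still passed. Relative to the spike-ins, that of tRNA-Asn-GTT-9-2 passed beside them. The other isodecoder ratios in DUS1L passed under neither scaling.

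In DUS3L the ratio was -1.74 for tRNA-Asn-GTT-1-1, -1.93 for tRNA-Asn-GTT-2-3, -1.85 for tRNA-Asn-GTT-24-1, -5.77 for tRNA-Asn-GTT-25-1, -1.95 for tRNA-Asn-GTT-5-1, -2.91 for tRNA-Asn-GTT-6-1 and -1.89 for tRNA-Asn-GTT-9-1. The level of tRNA-Asn-GTT-25-1 was 7.08 in DUS3L clone #1. Relative to the median nuclear row, the DUS3L call of tRNA-Asn-GTT-5-1 was lost. Each clone is a single line, so a difference between clones and a difference between their sets of 3 libraries cannot be told apart.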

How the results depend on the processing

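No paired analysis was possible because the tables hold no values per library, and leaving out each replicate was not run for the same reason. Of 165 values and counts that answer a comparison, 139 were marked as kept under other settings, and of 668 for single isodecoders 505 were. A value was kept if its direction and call, or lack of one, stayed, or if it stayed within its error where untested. A count was kept within a fixed ratio, as when 12 lower calls in DUS2L clone #1 became 9 at an adjusted p under 0.01. Stricter thresholds and the minimum mean reuse the same fold changes, so no direction could turn there. A value without a call could not gain one at the threshold of 0.01 or with the minimum change of 1. The sum of the isodecoder rows nearly restates the Asn-GTT row. The totals of kept values thus include settings that could hardly move them. With the other wild type, 13 isodecoder values were kept, 35 reversed, 7 grew stronger and 5 weaker. Of the values and counts that answer a comparison, 4 were then kept, 5 moved, 2 reversed and 1 grew weaker. The cause of the changes below was not tested.

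An adjusted p under 0.01 left 2 lower calls in DUS1L clone #1 and 2 isodecoders higher in DUS1L clone #1 than in clone #2. With rows of a mean of at least 100 alone, 2 were lower in DUS1L clone #1, 2 lower in DUS3L clone #1, 0 higher in either DUS2L clone and 0 higher in DUS1L clone #2 than in clone #1, with fewer rows tested.

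Relative to the median nuclear row, Asn-GTT stood at 0.10 in DUS3L clone #1 and at 0.0072 between the DUS2L clones. In DUS1L, tRNA-Asn-GTT-26-1 stood at -0.0065 in clone #1, and tRNA-Asn-GTT-24-1 at 0.17 and tRNA-Asn-GTT-6-1 at 0.13 in clone #2. In clone #2 of DUS2L tRNA-Asn-GTT-1-1 stood at 0.017 and in that of DUS3L tRNA-Asn-GTT-11-2 at -0.19. None of these passed either way. Lower calls in DUS2L clone #1 numbered 7, and isodecoders higher in clone #1 than in clone #2 numbered 2 in DUS1L and 2 in DUS2L. Relative to the spike-ins, 3 were lower in DUS3L clone #1, 3 were higher in DUS1L clone #1 than in clone #2, 1 was higher in DUS2L clone #2 than in clone #1, and tRNA-Asn-GTT-11-2 stood at -0.056 and -0.14 in the DUS3L clones.

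As a log2 ratio of shares of nuclear tRNA, Asn-GTT stood at -1.67 in DUS2L clone #1, -1.05 in DUS3L clone #1 and 0.56 in DUS3L clone #2. As shares of the asparagine level, in DUS2L clone #1 tRNA-Asn-GTT-1-1 stood at 1.16, tRNA-Asn-GTT-3-1 at 0.73, tRNA-Asn-GTT-4-1 at 0.92, tRNA-Asn-GTT-8-1 at 0.60 and tRNA-Asn-GTT-9-1 at 0.56. In DUS2L clone #2 tRNA-Asn-GTT-5-1 stood at 0.54, and in DUS3L clone #2 tRNA-Asn-GTT-1-1 at -0.24 and tRNA-Asn-GTT-26-1 at -0.013.

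With the wild type of the DUS3L table, relative to the median nuclear row, Asn-GTT stood at 1.61 in DUS1L clone #2 and at 0.12 and -0.13 in the DUS2L clones. Higher calls numbered 9 and 6 in the DUS1L clones and 0 in DUS2L clone #2, and lower calls 0 and 3 in the DUS2L clones. In DUS1L clone #1 tRNA-Asn-GTT-1-1 stood at 0.12, tRNA-Asn-GTT-10-1 at 1.78, tRNA-Asn-GTT-4-1 at 0.88 and tRNA-Asn-GTT-5-1 at 0.54. In DUS1L clone #2 tRNA-Asn-GTT-1-1 stood at 0.18, tRNA-Asn-GTT-10-1 at 0.60, tRNA-Asn-GTT-11-2 at -3.98, tRNA-Asn-GTT-24-1 at 3.64, tRNA-Asn-GTT-26-1 at 0.80, tRNA-Asn-GTT-3-1 at 0.47, tRNA-Asn-GTT-4-1 at 1.48, tRNA-Asn-GTT-5-1 at 0.45, tRNA-Asn-GTT-6-1 at 3.19, tRNA-Asn-GTT-8-1 at 1.10 and tRNA-Asn-GTT-9-1 at 2.02.

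Under the same wild type the turned values of the DUS2L clones were, for clone #1 and clone #2, 0.18 and 0.35 for tRNA-Asn-GTT-1-1, -0.89 and -1.04 for tRNA-Asn-GTT-11-2, 0.90 and 0.42 for tRNA-Asn-GTT-2-3, 0.26 and 0.17 for tRNA-Asn-GTT-24-1, and 0.17 and 0.37 for tRNA-Asn-GTT-3-1. They were 0.79 and 0.092 for tRNA-Asn-GTT-5-1, 0.79 and 0.75 for tRNA-Asn-GTT-6-1, 1.14 and 0.47 for tRNA-Asn-GTT-9-1, and 0.40 and 0.18 for tRNA-Asn-GTT-9-2. In clone #1 alone tRNA-Asn-GTT-4-1 turned to 0.75 and tRNA-Asn-GTT-8-1 to 2.10. Of these DUS2L values the one that passed was that of tRNA-Asn-GTT-9-1 in clone #1 (adjusted p = 0.0399).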
